A study of Mus musculus with 24 samples.

Results

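The comparison described here is LPS against control in BV2 cells, measured as counts of small RNA reads per microRNA precursor. Its members were all 1187 precursors listed in the first column of the deposited count table, read in the 3 libraries of LPS cells and the 3 libraries of control cells, 6 of the 24 libraries of the series. Of these precursors 563 had no count in any of the 6 libraries, and 259 had enough counts to be tested. BV2 is an immortalised mouse microglial line, and microglia are the resident macrophages of the brain. The LPS cells had received lipopolysaccharide, a bacterial cell wall component, at 100 ng/mL for 72 h. The control cells are labelled only as controls, and no genotype, vehicle or passage is given for either group. IL-10 cells and TGF-β cells (each cytokine at 50 ng/mL, 72 h, 3 libraries) were used here only to set the LPS values beside other treatments of the same line. Whether replicate libraries are separate cultures of this 1 line is not given, and a p-value here reflects only how these libraries scatter, which may be technical.

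A microRNA is cut from a hairpin precursor by Drosha in the nucleus and Dicer in the cytoplasm, and 1 arm of the hairpin is then loaded into an Argonaute protein. Bases 2 to 8 of that mature strand, the seed, pair with target messages, and microRNAs that share a seed share many potential targets. LPS is sensed by Toll-like receptor 4, which activates NF-kB through the adaptor kinases Irak1 and Irak4 and the ligase Traf6. In macrophages and microglia this pathway is known to induce mir-146a and mir-155, the first a brake on Irak1 and Traf6 and the second a promoter of inflammatory gene expression through targets such as Socs1 and Inpp5d.

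The mature sequences behind the main results follow, from RefSeq on GRCm38.p6, 5′ to 3′, with the seed in capitals. The deposited counts are per precursor and do not separate its arms, so for each precursor the arm that defines its family is shown. The first set are the microRNAs whose precursors rose together with a seed partner.
miR-146a-5p: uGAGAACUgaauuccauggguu
miR-146b-5p: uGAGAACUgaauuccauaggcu
miR-221-3p: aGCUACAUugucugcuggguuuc
miR-222-3p: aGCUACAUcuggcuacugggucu
miR-7a-5p: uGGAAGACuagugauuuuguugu
miR-7b-5p: uGGAAGACuugugauuuuguuguu
miR-29a-3p: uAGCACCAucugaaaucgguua
miR-29b-3p: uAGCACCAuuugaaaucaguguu
miR-29c-3p: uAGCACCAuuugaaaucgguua
miR-146a-5p and miR-146b-5p were identical over their first 17 bases and differed by G18A and U21C, counted from the 5′ end with the base of miR-146a-5p first. miR-29a-3p and miR-29c-3p differed by C10U alone, and miR-7a-5p and miR-7b-5p by A10U over the 23 bases they share. The next set are miR-155-5p and miR-21a-5p, then miR-32-5p with its seed relative miR-92a-3p, and miR-1961 with let-7g-5p, whose seed it shares.
miR-155-5p: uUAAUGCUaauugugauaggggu
miR-21a-5p: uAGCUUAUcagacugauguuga
miR-32-5p: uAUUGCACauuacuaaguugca
miR-92a-3p: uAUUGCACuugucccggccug
miR-1961: uGAGGUAGuaguuagaa
let-7g-5p: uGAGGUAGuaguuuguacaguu
The last set are from precursors that fell, with seed relatives that did not pass the test or that rose.
miR-326-3p: cCUCUGGGcccuuccuccagu
miR-210-3p: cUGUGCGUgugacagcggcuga
miR-351-5p: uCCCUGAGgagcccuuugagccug
miR-125b-5p: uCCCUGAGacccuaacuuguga
miR-322-5p: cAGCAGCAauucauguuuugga
miR-15a-5p: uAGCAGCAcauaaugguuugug
miR-16-5p: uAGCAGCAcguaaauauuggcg
miR-503-5p: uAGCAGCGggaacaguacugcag
miR-181a-5p: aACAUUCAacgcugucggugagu

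Library totals were 288720 to 409969 counts in control cells and 185400 to 233757 in LPS cells, so that every LPS total lay below every control total. A precursor without a count could still hold 0.00104% of the shallowest control library or 0.00162% of the shallowest LPS library (3 counts of the total), limits that cover counting error only. The myeloid precursors mir-142a and mir-223, which mark haematopoietic cells, were counted in all 6 libraries. mir-223 had 23 to 99 counts per library, while mir-99a of the same list had at most 2. Precursors listed for other cell types were also counted in all 6 libraries. Among them were mir-126a of the endothelium list (18 to 76 counts) and mir-128-1 of the neuron list (18 to 43). Presence of the myeloid precursors alone therefore does not set these libraries apart. The red cell precursors mir-451a and mir-144 had 0 counts, the lists for muscle, liver and gut, epithelium (the miR-200 family) and lymphocytes had no member with enough counts to test, and no tested member of the neuron list (3) or the endothelium list (1) was called.

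After LPS, 54 of the 259 tested precursors were higher (20.8%) and 29 were lower (11.2%) at an adjusted p under 0.05 in edgeR's quasi-likelihood test, and 115 had an unadjusted p under 0.05. A called change exceeded 1 on the log2 scale in 30 precursors that rose and in 11 that fell. The 3 LPS libraries lay above the 3 control libraries in 65 precursors (25.1%) and below them in 58 (22.4%). The rise of mir-146a, given below, was the largest change in the comparison, and the fall of mir-210 the largest downward. These counts depend on scaling: the LPS libraries have lower TMM factors (0.837 to 0.891) than the controls (1.04 to 1.26). Scaled by DESeq2's size factors, 50 passed the threshold upward and 47 downward; scaled by library totals, 30 and 100 did, the median of all tested precursors moving from 0.09 to -0.32 on the log2 scale. The count of lower precursors also rested on single libraries, being 45 without control library 2, 41 without LPS library 2, 19 without control library 3 and 21 without LPS library 1. Of the 83 called precursors, 44 were called in every alternative that gave a value, 29 of them higher and 15 lower. In bulk RNA a change in the level per cell and a change in the number of expressing cells cannot be told apart.

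**Figure D1:**
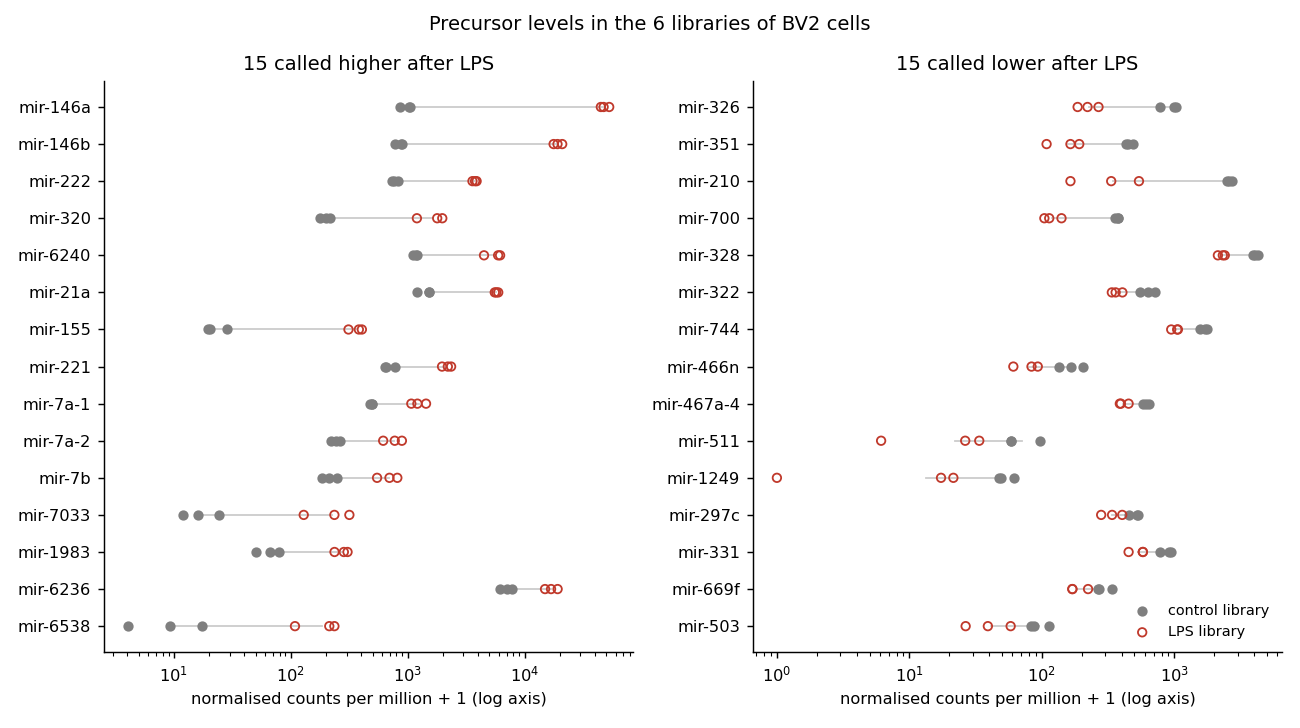
Normalised CPM plus 1 (log axis) in each control library (filled grey) and each LPS library (open red) for 30 called precursors, the 15 of smallest p on either side whose groups do not overlap. The grey line joins the group means; mir-146a lies at 864 to 1046 in controls and 44880 to 52900 after LPS.

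Precursors that Toll-like receptor 4 signalling is known to induce by way of NF-kB had the highest median of the lists described here. All 5 of the 13 listed members that could be tested rose, with a median log2 change of 4.06 against 0.09 over all tested precursors. The list was chosen with earlier results of these data known, so its direction is not independent evidence. mir-155 (7, 8 and 9 counts in controls) and mir-132 (1, 3 and 4) were too low to pass the count filter through control libraries. Both passed through other libraries, LPS libraries among them, so the 5 of 5 and the median follow in part from that filter. mir-146a, mir-146b and mir-21a had at least 286 counts in every control library. mir-146a (chr11:43374397-43374461, intergenic) stood at 864, 1016 and 1046 normalised CPM (CPM after TMM correction of the library size) in the control libraries and at 52900, 44880 and 47380 in the LPS libraries. No LPS library came near the control range, and the change was 49.6-fold (log2 5.63 ± 0.18 SE, n = 3 a group). mir-146b, from a different chromosome (chr19:46342762-46342870, an intron of Mfsd13a), went from 784, 899 and 880 to 20960, 17700 and 19110 normalised CPM, 22.5-fold. Together mir-146a and mir-146b took 0.209 ± 0.0107% of the counts in control cells and 5.80 ± 0.439% in LPS cells (SD, n = 3), where mir-146a was among the 8 most abundant precursors.

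mir-155, in an exon of Mir155hg (chr16:84714140-84714204), was low in control cells, with 7, 8 and 9 counts, or 19.2, 18.7 and 27.2 normalised CPM. It had 79, 60 and 57 counts after LPS, or 404, 381 and 310 normalised CPM, a 16.7-fold rise. mir-21a, which overlaps an exon of Vmp1 and targets Pdcd4, went from 1207, 1508 and 1530 to 5726, 5553 and 5945 normalised CPM. Each of these 4 kept its call under all 15 alternatives, or under the 14 that gave a value for mir-155. mir-132, which restrains acetylcholinesterase in inflamed myeloid cells, rested on 1, 3 and 4 counts in control and 8, 4 and 8 in LPS libraries. Its log2 change was 2.32 ± 0.66 (edgeR adjusted p = 0.0107), and without LPS library 3 it was 2.16 and no longer called. Its cluster partner mir-212 had 6, 7 and 0 counts in controls and 1, 4 and 4 after LPS and was too low to test. mir-147, another induced precursor in macrophages, had 2 counts over the controls and 6 over the LPS libraries, and mir-187 had none. The list's remaining untested members, mir-21b, mir-21c and the 3 mir-9 precursors, had at most 3 counts in any library.

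The neighbours mir-221 and mir-222 lie on the X chromosome within chrX:19146294-19146971 and carry the seed GCUACAU; both target the cell cycle inhibitor Cdkn1b. mir-222 stood at 727, 817 and 756 normalised CPM in controls and at 3766, 3579 and 3882 after LPS (log2 2.29 ± 0.13). mir-221 went from 634, 646 and 783 to 2349, 2202 and 1965 (1.66 ± 0.14). The groups were far apart in both, and their spread within a group was small.

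All 3 precursors of the miR-7 family rose, from 3 places in the genome. mir-7a-1 lies in an intron of Hnrnpk (chr13:58392779-58392886), and mir-7a-2 (chr7:78888277-78888373) and mir-7b (chr17:56242988-56243098) lie outside annotated genes. In the control libraries mir-7a-1 was at 494, 478 and 496 normalised CPM and after LPS at 1433, 1072 and 1209 (log2 1.34 ± 0.14). mir-7a-2 went from 261, 218 and 242 to 890, 616 and 773 (1.67 ± 0.18). mir-7b went from 246.8, 182.7 and 211.6 to 814, 546 and 697 (1.69 ± 0.19). In all 3 precursors LPS library 1 was the highest and LPS library 2 the lowest of its group, still above every control. mir-7a-1 and mir-7a-2 encode the same mature sequence, but their counts differed by 44.1%, so they were not simple copies of each other in the table. mir-7a-2 and mir-7b, whose mature strands differ by 1 base, had close counts in each library. These were 95, 93 and 80 against 90, 78 and 70 in controls, and 174, 97 and 142 against 159, 86 and 128 after LPS. Reads may be shared, so the 3 may be fewer separate measurements. The family's share of counts went from 0.109 ± 0.0172% to 0.230 ± 0.0369%.

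The 4 miR-29 precursors, whose products target collagen and Dnmt3 messages, also rose, as 2 clusters on 2 chromosomes. On chromosome 6 mir-29b-1 went from 159, 115 and 212 to 358, 444 and 370 normalised CPM (log2 1.28 ± 0.21) and mir-29a from 666, 693 and 810 to 1387, 1053 and 1165 (0.74 ± 0.15). On chromosome 1 mir-29b-2 went from 134, 84.3 and 181 to 307, 432 and 343 (1.45 ± 0.24) and mir-29c from 277, 216 and 308 to 466, 336 and 495 (0.71 ± 0.19). In both clusters the mir-29b precursor changed more than its neighbour by the point estimate, a difference that was not tested. The 2 mir-29b precursors share 1 mature sequence and their counts differed by 12.7%. Control library 2 was the lowest of its group for mir-29b-1, mir-29b-2 and mir-29c, and without it mir-29c stood at 0.45 and was not called. Scaled by library totals, neither mir-29a (0.32) nor mir-29c (0.29) was called.

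mir-320, whose hairpin bypasses Drosha because it starts at a transcription start site, was at 200, 176 and 215 normalised CPM in controls and at 1197, 1974 and 1786 after LPS. Its log2 change was 3.07 ± 0.18, and LPS library 1, the lowest of its group, still lay far above every control library. The other 4 tested precursors listed as bypassing Drosha were not called higher. mir-702, an intron-derived precursor at Plod3, fell from 43.9, 56.2 and 48.4 to 15.4, 12.7 and 21.8 normalised CPM (log2 -1.55 ± 0.53, edgeR adjusted p = 0.029). It was not called without control library 2 (-1.56) or 3 (-1.59), or without LPS library 1 (-1.51) or 2 (-1.53). mir-484 stood at -0.60 ± 0.23 (edgeR adjusted p = 0.0534), just outside the threshold, and was called lower in 10 of 15 alternatives (-0.67 with DESeq2's size factors, -1.01 with library totals). mir-1981 stood at -0.96 ± 0.42 (edgeR adjusted p = 0.0873) and mir-877 at -0.16 ± 0.15 (0.432).

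The miR-17-92 transcript Mir17hg on chromosome 14, an oncogenic cluster of proliferating cells, moved in part. Of its 6 members mir-19a (log2 0.48), mir-19b-1 (0.46) and mir-92a-1 (0.44) were called higher, while mir-17 (0.09 ± 0.14), mir-18a (0.26 ± 0.30) and mir-20a (0.06 ± 0.40) were not called. In the paralogous cluster on the X chromosome mir-19b-2 (0.44) and mir-92a-2 (0.45) were called higher and mir-106a (0.27 ± 0.18) was not. For mir-92a-1 the control libraries were at 2175, 2208 and 2192 normalised CPM and the LPS libraries at 3085, 3103 and 2749. The 2 mir-19b precursors differed by 0.987% in counts and the 2 mir-92a precursors by 8.7%, so calls in these copies are not separate observations. All 5 calls were lost with library totals, where the changes were 0.02 to 0.07. Each was also lost without control library 1 (0.29 to 0.39), control library 2 (0.33 to 0.40), LPS library 1 (0.35 to 0.40) or LPS library 2 (0.29 to 0.40). Some were lost without control library 3 (mir-19b-2 0.46, mir-92a-1 and mir-92a-2 0.42) or LPS library 3 (mir-19b-1 0.47). The third cluster, mir-106b, mir-93 and mir-25 in Mcm7, had no call, with changes of 0.08 to 0.23.

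Among the carriers of the seed AUUGCAC, mir-32 stood out by its size of change. mir-32 lies in an intron of Tmem245 and went from 46.6, 23.4 and 27.2 to 113, 50.8 and 109 normalised CPM (log2 1.51 ± 0.39, edgeR adjusted p = 0.00479). Its lowest LPS library, library 2, lay just above its highest control library, library 1, and it was called under all 14 alternatives that gave a value. The relatives mir-25 (0.23 ± 0.14) and mir-92b (0.28 ± 0.20) were not called. Downstream of the seed miR-32-5p and miR-92a-3p differ at 10 of the 21 bases compared, and the first 8 bases are identical.

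The seed AGCAGCA belongs to the miR-15/16 family, which targets cyclins and Bcl2. Mature sequences were matched for 184 of the 259 tested precursors, and 41 seeds carried by 2 or more of these were compared. AGCAGCA was the only 1 of the 41 with called members in both directions. mir-322 fell, as given below with its cluster. mir-15a, in an intron of Dleu2, went from 104, 96.0 and 130 to 30.7, 57.1 and 87.1 normalised CPM (log2 -0.91 ± 0.34, edgeR adjusted p = 0.0472). It was not called by DESeq2's Wald test (-1.02) or without control library 1 (-1), control library 3 (-0.81), LPS library 1 (-0.61) or LPS library 2 (-1.03). mir-16-2, in an intron of Smc4, was higher by 0.41 ± 0.15 (edgeR adjusted p = 0.0452), but lost its call under 12 of 15 alternatives and turned to -0.01 with library totals. Leaving out any 1 of the 6 libraries ended the call of mir-16-2, at 0.25 to 0.43. Its neighbour mir-15b (0.40 ± 0.17) and the mir-15a neighbour mir-16-1 (0.29 ± 0.16) were not called.

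**Figure D2:**
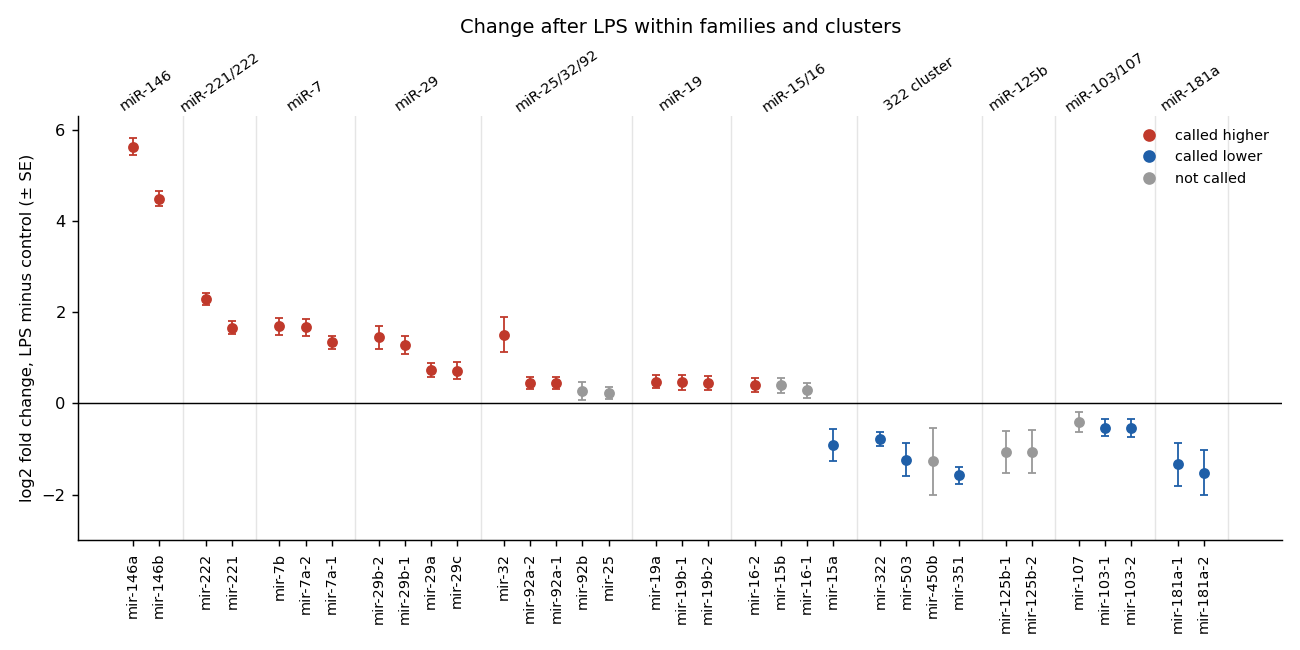
Log2 fold change (LPS minus control, ± SE) of precursors grouped by seed family or cluster, with called precursors in red (higher) or blue (lower) and uncalled ones in grey. The groups of mir-146, mir-221 with mir-222, mir-7 and mir-29 are higher throughout, the cluster of mir-322 is lower, and the miR-15/16 group holds mir-16-2 at 0.41 and mir-15a at -0.91.

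On the falling side mir-210, the classical hypoxia-induced precursor that targets iron-sulphur cluster scaffold and mitochondrial messages, changed most. It was at 2721, 2503 and 2582 normalised CPM in controls and at 333, 539 and 163 after LPS, 7.64-fold lower (log2 -2.93 ± 0.33). The controls were close to each other, and the LPS libraries spread widely but stayed far below them. mir-326, in an intron of Arrb1, is known to target messages of the Hedgehog and Notch pathways. It went from 776, 993 and 1028 to 220, 267 and 185 normalised CPM, 4.19-fold lower (-2.07 ± 0.23). The other tested carrier of the mir-326 seed CUCUGGG, mir-330, stood at -0.26 ± 0.25 and was not called. mir-700, at Rcan3, went from 354, 372 and 375 to 113, 140 and 103 (-1.64 ± 0.19).

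A cluster on the X chromosome (chrX:53047997-53054349, minus strand) holds mir-322, mir-503, mir-351 and mir-450b, and its products restrain cell cycle messages. mir-351 was at 447, 433 and 484 normalised CPM in controls and at 108, 190 and 163 after LPS (log2 -1.58 ± 0.18). mir-503 went from 82.3, 86.7 and 112 to 25.6, 57.1 and 38.1 (-1.24 ± 0.37, edgeR adjusted p = 0.013), and without LPS library 1 it stood at -1.01 and was not called. mir-322 went from 546, 635 and 707 to 404, 336 and 359 (-0.77 ± 0.15). mir-450b, with 11, 8 and 7 counts in controls and 0, 4 and 1 after LPS, was at -1.27 ± 0.74 (edgeR adjusted p = 0.194). It moved to -3.08 and was called lower without LPS library 2, and moved to -0.67 without LPS library 1. Too low to test, mir-542 of the same cluster had 8, 5 and 8 counts in controls and 1, 0 and 0 after LPS, 13.3-fold lower relative to the totals with a 95% counting interval of 2.14 to 550. This ratio was computed because of the gap in counts, and its interval covers counting error only. mir-125b-1 and mir-125b-2, which share the seed CCCUGAG with mir-351 and lie on other chromosomes, had identical counts of 14, 22 and 17 in controls and 4, 5 and 3 after LPS. Their change of -1.06 was not called (edgeR adjusted p = 0.0873 each), but both were called lower without LPS library 2 and with library totals, at -1.46 in each case.

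Positions were matched for 185 of the 259 tested precursors. Among these, 20 clusters held at least 2 tested precursors within 10 kb on 1 strand. Of the 20, 13 had a called member and none had called members in both directions. The mir-297, mir-466, mir-467 and mir-669 group, called in both directions as given below, is not among these 20 clusters. The cluster of mir-182, mir-96 and mir-183 on chromosome 6, known from sensory organs, was called for mir-182 alone. mir-182 went from 187, 201 and 260 to 343, 260 and 408 normalised CPM (log2 0.66 ± 0.20, edgeR adjusted p = 0.0146), while mir-183 stood at -0.12 ± 0.13. With library totals mir-182 was at 0.25 and not called, and it lost its call in 6 of 15 alternatives, among them those without control library 1 (0.51), control library 2 (0.49) and LPS library 3 (0.47). Next to mir-130b (-0.43 ± 0.13, called lower in every alternative), mir-301b stood at -0.18 ± 0.31. In the Clcn5 group on the X chromosome only mir-532 of 5 tested members was called lower, at -0.35 ± 0.13, and not without control library 3 (-0.33) or LPS library 3 (-0.39).

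Several smaller decreases had tight libraries. mir-328, at a level above that of mir-210 in control cells, went from 3916, 4304 and 4075 to 2129, 2399 and 2319 normalised CPM (log2 -0.85 ± 0.16). mir-744, in an intron of Map2k4, went from 1772, 1564 and 1699 to 1049, 946 and 1062 (-0.72 ± 0.15). mir-331, at Vezt, went from 779, 916 and 937 to 450, 578 and 577 (-0.72 ± 0.21), and mir-185, in Tango2, from 354, 335 and 354 to 276, 209 and 240 (-0.51 ± 0.16). mir-1249 fell further and its LPS libraries were not tight, with 17, 26 and 16 counts in controls and 4, 0 and 3 after LPS. In normalised CPM it had 46.6, 60.9 and 48.4 in controls and 20.5, 0 and 16.3 after LPS (-1.98 ± 0.55). It was called in every alternative that gave a value. The family of mir-103 and mir-107, encoded in introns of the pantothenate kinase genes, had mir-103-1 (Pank3) at -0.53 and mir-103-2 (Pank2) at -0.54 called lower and mir-107 (Pank1) at -0.41 ± 0.22 not called (-0.65 and called without control library 2). The 2 mir-103 precursors differed by 0.426% in counts, and both lost their call without control library 1, control library 3 or LPS library 3, and by DESeq2's Wald test.

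The list of brakes on Toll-like receptor signalling or on activation leaves out mir-146a, itself a brake, which rose and was listed above among the induced precursors. The tested members of the list were called lower or not called. Of 17 listed, 7 were tested, 3 were called lower and none higher, with a median of -1.06, beside 11.2% lower, 20.8% higher and a median of 0.09 over all tested precursors. Of the 3, mir-181a-1 and mir-181a-2 encode 1 mature sequence and had nearly the same counts, and the mir-125b pair had identical counts, so that the 7 are fewer separate measurements. With library totals 6 of the 7 were called lower. mir-223, which restrains Nlrp3 in myeloid cells, went from 203, 232 and 284 to 169, 146 and 136 normalised CPM (log2 -0.66 ± 0.24, edgeR adjusted p = 0.043). It was not called without control library 3 (-0.55) or LPS library 3 (-0.62), or by DESeq2's Wald test (-0.76). mir-181a-1 and mir-181a-2, modulators of cytokine signalling, fell by 1.34 and 1.52 on the log2 scale, from 17 to 38 counts per control library to 2 to 6 per LPS library. Control library 3 held their highest values, and without it they stood at -0.90 and -1.10 and were not called. mir-181a-1 also lost its call without each LPS library (-1.16, -1.54 and -1.49), and mir-181a-2 without LPS library 1 (-1.14). let-7i, which targets Tlr4, was at 1794, 1993 and 1868 in controls and 2118, 2082 and 2194 after LPS (0.18 ± 0.13) and was not called. mir-124-1, a keeper of microglial quiescence in the brain, had 1 count over the controls and 5 over the LPS libraries.

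Of 7 tested myeloid and microglial precursors 1 rose and 2 fell, beside 20.8% and 11.2% over all tested precursors. mir-342, in an intron of Evl, had 49.4, 60.9 and 57.4 normalised CPM in controls and 174, 190 and 196 after LPS (log2 1.73 ± 0.23). mir-511, hosted by an Mrc1 intron (the mannose receptor, a marker of alternative activation), had 57.6, 96.0 and 57.4 in controls and 5.12, 25.4 and 32.7 after LPS (-1.78 ± 0.46, edgeR adjusted p = 0.00494). The raw counts of mir-511 were 21, 41 and 19 against 1, 4 and 6, and its call held in every alternative that gave a value. The other of these was mir-223, given above. mir-142a, a precursor of blood-forming cells, stood at 2334, 3014 and 2948 against 3311, 2951 and 3414 (0.22 ± 0.16) and its groups overlapped. mir-191 (0.24 ± 0.13) and the mir-125b pair were not called. Among others known from stress responses, the p53 target mir-34a was at 0.27 ± 0.19 and not called.

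3 further rises were in precursors inside protein-coding genes. mir-139, in an intron of the phosphodiesterase gene Pde2a, went from 74.1, 56.2 and 57.4 to 194.4, 222.1 and 179.7 normalised CPM (log2 1.66 ± 0.25). mir-22, which overlaps Tlcd2 in the annotation, went from 76.8, 79.6 and 112 to 174, 209 and 201 (1.13 ± 0.23). mir-6546, in an intron of the Fc receptor gene Fcgr3, went from 79.5, 82.0 and 57.4 to 174, 279 and 142 (1.41 ± 0.29). All 3 were called under the 14 alternatives that gave a value. Of the called precursors with a position, 18 of 46 that rose lay in introns, 11 touched exons and 17 were intergenic. Of 23 that fell, 10, 7 and 6 did so, and of all 185 tested precursors with a position 77, 56 and 52, so the places of called precursors were near those of all tested. The median GC content of mature sequences was 44.4% for precursors that rose, 53.2% for those that fell and 49.0% for all tested, a description with no test.

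Several precursors with little known function changed by large factors. mir-6538, in an intron of Rnf144a, had 8.23, 16.4 and 3.02 normalised CPM in controls and 108, 235 and 212 after LPS (log2 4.17 ± 0.50). mir-7033, in an intron of Pom121, had 11.0, 23.4 and 15.1 against 128, 235 and 316 (3.71 ± 0.43). mir-1961, an intergenic precursor on chromosome 5 singled out after its values were seen, had 11.0, 18.7 and 12.1 against 123, 216 and 196 (3.60 ± 0.45). In these 3 LPS library 1 was the lowest of its group, and in none did an LPS library fall near the controls. All 3 passed the count filter only through the LPS libraries, so their direction follows in part from that filter. miR-1961 begins with the let-7 seed: over the 17 bases compared it was identical to let-7g-5p at the first 13 and differed by U14A and U16A, the base of let-7g-5p first. The let-7 precursors themselves changed little, with let-7g at 0.42 ± 0.13 (edgeR adjusted p = 0.0177; 0.01 with library totals and not called). let-7g was not called without control library 1 (0.32), control library 2 (0.30), LPS library 1 (0.33) or LPS library 3 (0.40) either. mir-6481 was too low to test, with 0 counts in controls and 12, 6 and 4 after LPS, at least 11.6-fold higher against a floor of 3 counts over the group. It was named because of this gap in counts.

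**Figure D3:**
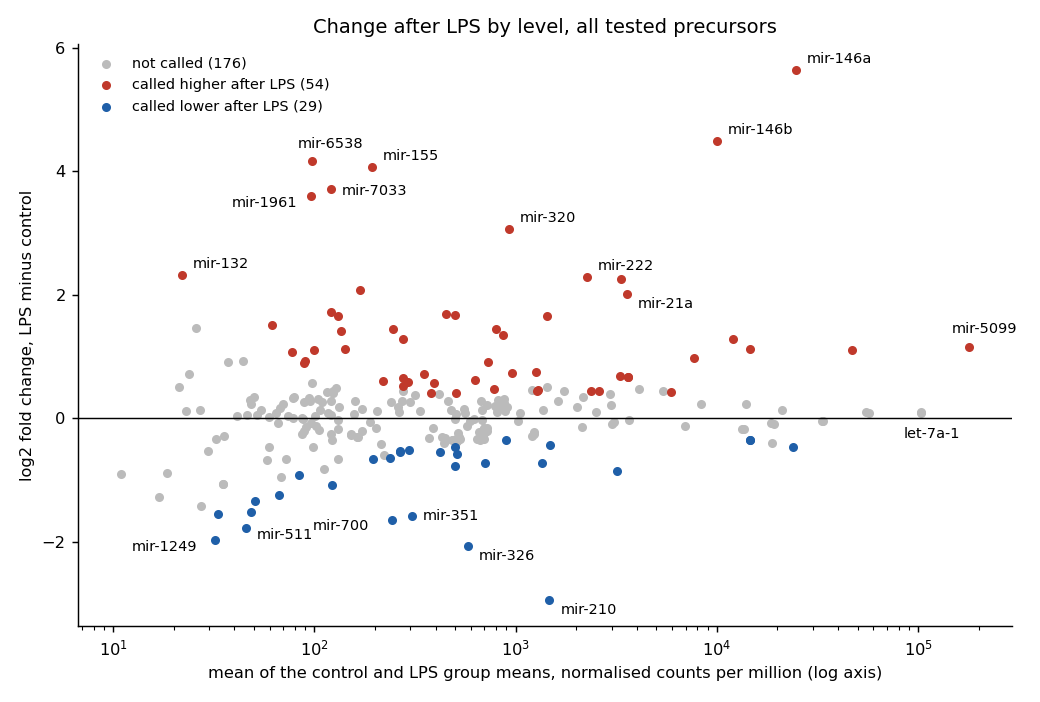
Log2 fold change (LPS minus control) of the 259 tested precursors against their mean level in normalised CPM (log axis), with called precursors in red or blue and uncalled ones in grey. Large changes occur at low levels (mir-6538, mir-7033, mir-1961) and at high levels (mir-146a at 5.63), and let-7a-1 lies near 0.

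The let-7 family, which restrains proliferation, was the most abundant family listed here in both groups. The 14 let-7 precursors (mir-98 included) took 49.3, 48.7 and 51.2% of counts in the control libraries and 39.5, 37.8 and 39.9% in the LPS libraries. In counts let-7a-1 and let-7a-2 differed by 0.851%, let-7f-1 and let-7f-2 by 2.95%, and let-7c-1 and let-7c-2 by 1.32%. Their reads may be shared, so the family share may count some reads more than once, and the 14 are fewer separate measurements. The LPS shares lay below the control shares, with an exact permutation p of 0.1, the smallest that 3 against 3 allows. With TMM factors 1 of the 14 was called, let-7g, and let-7a-1 stood at 90790, 107300 and 103200 against 111600, 104500 and 105900 normalised CPM (log2 0.10 ± 0.13). With library totals the direction of let-7a-1, let-7a-2 and let-7f-1 turned, each at -0.32 and called lower, as let-7c-1 was at -0.45. In all, 10 of the 14 were called lower with library totals, so the family's direction depends on scaling. The miR-23/27/24 precursors took 8.34 ± 0.501% and 5.49 ± 0.476%. Of these mir-24-1 and mir-24-2 were called lower (-0.34 each, 0.698% apart in counts), and not without control library 3, LPS library 1 or LPS library 3, where they stood at -0.38 to -0.32. mir-23a (-0.08), mir-23b (-0.08), mir-27a (-0.01) and mir-27b (-0.02) were not called with TMM factors. Scaled by library totals all 6 precursors of these clusters were called lower, mir-23a and mir-23b at -0.49, mir-27a at -0.44 and mir-27b at -0.45. mir-23a and mir-23b had close counts in each library (6305 and 6175 in control library 1), as did mir-27a and mir-27b (242 and 269). Their reads may also be shared, so the 6 may be fewer separate measurements and their share may count some reads more than once.

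Precursors whose annotation overlaps other small RNAs, and mir-5099, took more of the LPS libraries. mir-5099 rose from 12.1, 14.4 and 11.5% of counts to 21.8, 22.5 and 19.4%, and from 96400, 138400 and 100400 to 261100, 265100 and 217700 normalised CPM (log2 1.15 ± 0.16). mir-3535, which in the annotation lies at Ncl on top of a snoRNA, rose from 3.41 ± 0.269% to 5.49 ± 0.632% of counts. Of 6 tested precursors listed as overlapping rRNA, tRNA or snoRNA, 5 rose, with a median of 1.36, beside 20.8% higher and a median of 0.09 over all tested precursors. They were mir-6240 (2.25), mir-1983 (2.08), mir-6238 (1.44), mir-6236 (1.28) and mir-664 (0.92). mir-6240 went from 1204, 1115 and 1167 to 4493, 6168 and 5934 normalised CPM, and mir-6236 from 6160, 7745 and 7050 to 14950, 19150 and 16830. mir-1983 went from 49.4, 65.6 and 78.6 to 235, 305 and 283. The summed share of the 7 listed precursors in the table was 1.21 ± 0.0141% in controls and 2.30 ± 0.314% after LPS. Untested, mir-6239 of the same list had 2 counts over the controls and 26 over the LPS libraries, a ratio of 20.5 with a 95% counting interval of 5.14 to 179. The ratio was computed because of this gap in counts. Its interval covers counting error only, and replicate libraries scattered more (chi-square over degrees of freedom 4.52 to 12.8). The shares of the listed precursors and of mir-5099 moved with the treatment, and their part in the other changes was not tested beyond refitting without them. That refit, without the listed precursors and mir-5099, gave 42 higher and 44 lower, all 42 and 29 of the 44 being calls of the full fit. The 5 listed precursors that rose and mir-5099 were not in the refit and could not be called. The smaller number of higher calls is therefore in part a result of leaving them out.

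A count made after the values were seen took in the 185 tested precursors with a matched position. Of these, 14 overlap an annotated snoRNA or scaRNA on their strand. They were 8 of the 46 placed precursors that rose, 1 of the 23 that fell and 5 of the 116 not called. Tested precursors without a position could not be counted. Besides mir-3535 and mir-664 (in Snora36b), the 8 were mir-3069 (Scarna13, log2 0.75), mir-3084-1 and mir-3084-2 (0.67 each, counts 0.054% apart), mir-6516 (0.68), mir-1291 (Snora34, 0.62) and mir-7650 (1.08). The 2 mir-3084 precursors are not separate observations. With library totals mir-3069 (0.34), mir-3084-1 (0.26), mir-3084-2 (0.27), mir-6516 (0.28), mir-1291 (0.22) and mir-7650 (0.70) were not called. mir-6516 was not called without control library 1 (0.49) or LPS library 2 (0.55), nor mir-1291 without control library 1 (0.41), control library 3 (0.58) or LPS library 2 (0.25). The libraries of mir-7650 overlapped between the groups, and it was not called without LPS library 3 (0.62), among 11 alternatives of 14. The 1 that fell, mir-5121, lies on Snord33 in Rpl13a and went from 24940, 33190 and 24770 to 16550, 20280 and 23260 normalised CPM (-0.46 ± 0.16). Without LPS library 1 it stood at -0.37 and was not called. The abundant mir-2137, intronic in Zfp185, rose from 9306, 8611 and 9722 to 15410, 24980 and 19990 (1.13 ± 0.18), and mir-1949 from 3450, 7560 and 4550 to 10120, 9189 and 11440 (0.98 ± 0.23).

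Precursors named mir-297, mir-466, mir-467 and mir-669, a rodent group known from an intron of the imprinted gene Sfmbt2, had 67 tested members, of which 6 were called higher, 5 lower and 56 neither, with a median of -0.15. Over all tested precursors 20.8% were higher and 11.2% lower, with a median of 0.09. The split depends on scaling, since DESeq2's size factors gave 5 calls up and 18 down, and library totals gave 0 and 34. mir-466n was the largest decrease, from 165, 134 and 203 to 92.1, 82.5 and 59.9 normalised CPM (log2 -1.08 ± 0.27), and mir-466f-3 the largest called increase, from 79.5, 56.2 and 51.4 to 108, 165 and 136 (1.11 ± 0.30). mir-467a-4 (-0.58), mir-297c (-0.54) and mir-466n were called lower in every alternative that gave a value, while mir-669f (-0.64) was not called without LPS library 1 (-0.60) and mir-467a-8 (-0.46) not without control library 3 (-0.47) or LPS library 2 (-0.40). All 6 that rose (mir-466f-3, mir-669d, mir-669d-2, mir-669p-1, mir-669l and mir-467e) lost their call with library totals, and mir-466f-3 also without control library 2 (0.90) or LPS library 2 (0.83). Without control library 2 the other 5 were not called, at 0.25 for mir-467e, 0.44 for mir-669p-1, 0.51 for mir-669l, 0.73 for mir-669d-2 and 0.80 for mir-669d. mir-669d and mir-669d-2 differed by 0.758% in counts, so their calls are not separate observations. The 10 numbered mir-467a precursors had 838 to 907 counts each and changes of -0.58 to -0.24, of which only mir-467a-4 and mir-467a-8 were called, and their reads may be shared. The families miR-30 (6 tested), miR-26 (3), mir-199 with mir-214 (3) and miR-99/100/125 (5) had no call with TMM factors, while 0, 1, 3 and 5 of them in that order were called lower with library totals. Of 50 listed precursors of the imprinted Dlk1-Dio3 region, 45 had 0 counts in all 6 libraries and none was tested.

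The LPS libraries were also compared with the IL-10 and the TGF-β libraries, whose counts were deposited separately. These comparisons share the LPS libraries with each other and with the comparison to control, so their values are set side by side and are not independent. Against IL-10 cells 53 precursors were higher (20.5%) and 62 lower (23.9%), and against TGF-β cells 47 were higher (18.1%) and 36 lower (13.9%). mir-146a was higher by 4.98 ± 0.17 on the log2 scale than in IL-10 cells and by 5.35 ± 0.18 than in TGF-β cells, mir-146b by 3.82 and 4.20, mir-155 by 3.33 and 4.49 and mir-320 by 3.38 and 3.07. mir-6240 was higher by 2.37 than in IL-10 cells and by 1.87 than in TGF-β cells. mir-326 was lower than in both (-1.49 and -1.28), as were mir-700 (-1.17 and -2.03) and mir-328 (-0.84 and -1.03).

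Some changes against control were not changes against a cytokine. mir-21a did not differ detectably from its level in IL-10 cells (5247 to 5347 normalised CPM; log2 difference 0.12 ± 0.14, edgeR adjusted p = 0.553), but lay 3.05 ± 0.15 above its level in TGF-β cells (622 to 810). mir-342 likewise stood at 159 to 170 normalised CPM in IL-10 cells (0.19 ± 0.21, edgeR adjusted p = 0.545) and averaged 51.9 in TGF-β cells (1.84 ± 0.24 higher in LPS cells). mir-222 was lower in TGF-β cells than in controls, at 330 to 411 normalised CPM, and LPS cells exceeded them by 3.33 ± 0.14. The X-linked mir-322 and mir-503 differed from IL-10 cells (-1.15 ± 0.15 and -1.11 ± 0.37) but not detectably from TGF-β cells (-0.08 ± 0.16 and 0.16 ± 0.43, edgeR adjusted p = 0.749 and 0.778). mir-351 was lower than in both (-1.73 ± 0.18 and -0.52 ± 0.20). mir-511 differed from IL-10 cells by -2.64 ± 0.42 on the log2 scale, where it reached 121 to 143 normalised CPM, and differed from TGF-β cells by -0.92 ± 0.52 (edgeR adjusted p = 0.186). mir-223 was lower than in IL-10 cells (-0.74 ± 0.24) and higher than in TGF-β cells (1.03 ± 0.29). Among the precursors called against control, mir-744 (-1.23) and mir-185 (-0.91) were in the 5 with the smallest p below TGF-β cells.

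**Figure D4:**
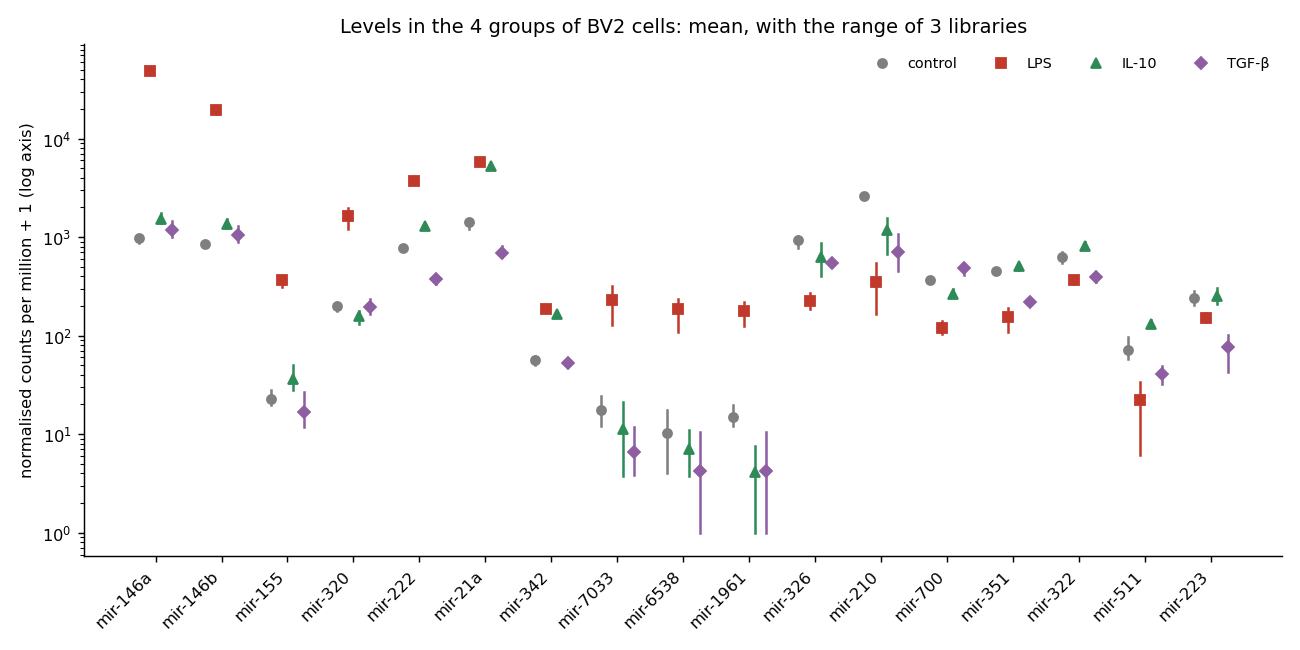
Mean normalised CPM plus 1 (log axis) of 17 precursors in control, LPS, IL-10 and TGF-β cells, with vertical lines from the lowest to the highest of 3 libraries. mir-146a, mir-146b, mir-155 and mir-320 stand apart in LPS cells, while LPS and IL-10 cells differ by 0.12 in mir-21a and 0.19 in mir-342 on the log2 scale.

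mir-6538, mir-7033 and mir-1961 passed the count filter only through the LPS libraries, so their low levels in the other cells follow in part from that filter. In IL-10 cells these 3 precursors averaged 6.07, 10.3 and 3.13 normalised CPM and in TGF-β cells 3.20, 5.57 and 3.20, against 185, 226 and 178 in LPS cells. mir-7b (1.29 and 1.99), mir-7a-2 (1.27 and 1.93) and mir-7a-1 (1.00 and 1.25) were higher than in both cytokine groups. The mir-29b precursors were as well (mir-29b-1 1.19 and 1.86, mir-29b-2 1.39 and 2.01), while mir-29c was not called in either (0.39 ± 0.18 and 0.40 ± 0.19). mir-92a-1 exceeded its IL-10 level by 1.35 ± 0.14 and its TGF-β level by 0.62 ± 0.13.

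The plot of called precursors under both scalings shows how the level shift acts on them. With library totals each log2 change lay about 0.4 below its value with TMM factors, and 24 of the 83 called precursors lost their call (mir-16-2 turning sign), all of them called higher with TMM factors. With DESeq2's size factors 4 lost it (mir-467e, mir-16-2, mir-8112 and mir-7650).

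**Figure D5:**
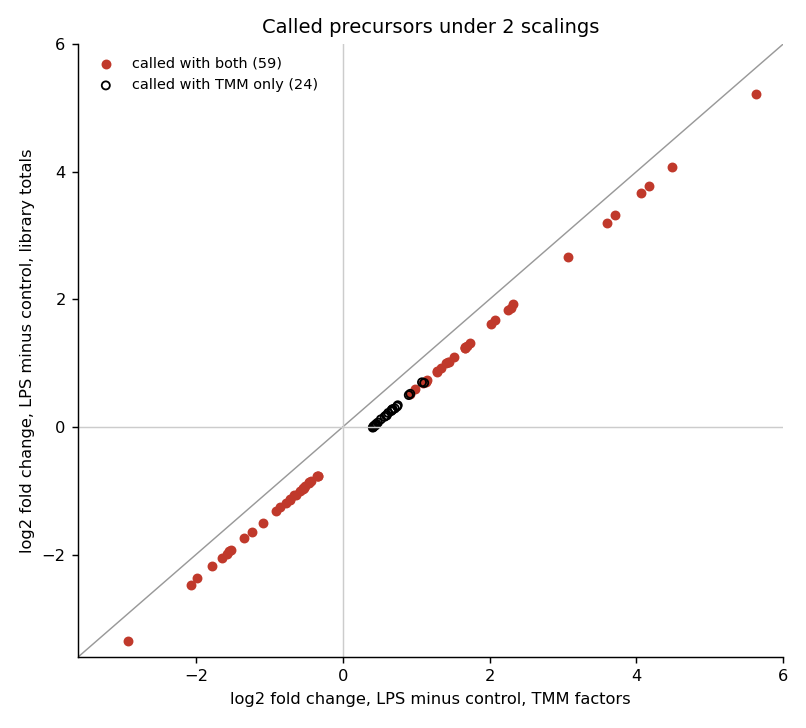
Log2 fold change (LPS minus control) of the 83 called precursors with library totals (vertical axis) against TMM factors (horizontal axis), with the diagonal of equal values. Open circles mark the 24 that were called with TMM factors only; all points lie below the diagonal, and mir-146a is at 5.63 and 5.22.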

How the data were processed

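Small RNA libraries (SMARTer kit, 18 PCR cycles, per the labels) of BV2 cells were analysed. The deposited values are whole-number counts per precursor made by the authors. Control and LPS counts were deposited together under the name raw counts, and IL-10 and TGF-β counts separately under the name processed data. Whether all were processed alike is not given. DESeq2 is named in the submitters' processing notes, while aligner, annotation and filters are not given in the sources read. edgeR 4.0.16 (TMM, filterByExpr minimum count 10, quasi-likelihood test, Benjamini-Hochberg over 259 precursors) was fitted once over 12 cell libraries with 8 residual degrees of freedom; normalised CPM divides counts by the total over tested precursors times the TMM factor; calls have an adjusted p under 0.05. DESeq2 1.42.0 served as an alternative, and the fit was tested on simulated data. SE is the absolute log2 change over the root of F. Replicate numbers are only library names. RefSeq matched 1015 of 1187 precursor names to mature sequences and 184 of the 259 tested; hosts are from GENCODE on GRCm38, which may not be the authors' build.

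The members and lists were chosen with earlier results of these data known. Named precursors are the 15 of smallest p on either side among called ones whose groups do not overlap, the 8 most abundant in each group, called members of lists with up to 4 uncalled ones, 16 known in inflammation, untested ones with at least 20 counts in 1 group and at most 3 in the other, and seed and cluster neighbours. Also named, among precursors called against control, are the 5 with the smallest p in either direction of each other contrast. Others named (those on snoRNAs, mir-32, mir-92b, mir-139, mir-22, mir-532, mir-1949, mir-1961, mir-2137, mir-6546 and mir-8112) were chosen after their values were seen. Alternatives changed the scaling, filter, test, prior, libraries, composition and numbered copies.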

Additional observations from a re-analysis of the deposited data

How the results depend on the processing

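For LPS against control, the count called lower was 47 with DESeq2 size factors, 100 with library totals, 60 with no filter, 44 with only the 2 groups in the fit and 44 without the precursors overlapping other small RNAs and mir-5099; it ranged from 19 to 45 when a library was left out. The count called higher was 30 with library totals. Against IL-10, 35 were higher with library totals, and 34 to 52 were lower when a library was left out. Against TGF-β, 71 were lower with library totals. Library totals turned let-7a-1, let-7a-2 and let-7f-1 to -0.32 each and mir-16-2 to -0.01. Among the lists, library totals gave no higher call for let-7 (0; 10 lower), miR-17-92, miR-106a-363, miR-15/16, mir-182 with mir-183 (1 lower) and the Sfmbt2 group (34 lower), and 2 higher for miR-29. They gave 6 lower for the brakes and for miR-23/27/24, 4 for the myeloid list and for those bypassing Drosha, 5 for miR-99/100/125, 3 for mir-199 with mir-214 and 1 for miR-26. DESeq2 size factors gave 0 higher for miR-15/16, 2 lower for those bypassing Drosha and 18 lower for the Sfmbt2 group. Without the precursors overlapping other small RNAs and mir-5099, let-7 took 57.8% of control and 51.1% of LPS counts. The cause was not tested. Depth limits precursors with few counts, such as mir-132, mir-181a-1 and mir-511. No paired analysis was possible: the columns are numbered within each group, but nothing ties the numbered columns of different groups together.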
